A study of Mus musculus with 6 samples.

Results

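The genes described here were 31 members of the p53 pathway in mouse embryonic stem (ES) cells: the p53 family and its regulators (5 genes) and targets of p53 sorted by role into growth arrest (7 genes), cell death (12 genes) and repair and metabolic stress (7 genes). They were chosen by symbol, and all 31 were among the 22602 genes of the expression table. mRNA was sequenced from 6 libraries grown for 26 h without tetracycline. The Sim2 libraries were made from A6, B8 and C4, each a single culture of 1 clone that carries Flag-tagged mouse Sim2, a bHLH-PAS transcription factor, with IRES-Venus at the ROSA26 locus under the tetracycline-regulated hCMV*-1 promoter. The other 3 libraries, EB3-0, EB3-1 and EB3-2, came from cultures of EBRTcH3 (EB3), the parental line, which has the same inducible system with Venus but no Sim2 transgene. The study asked which transcripts Sim2 alters, and the p53 genes were read here for whether the clones, in which stretches of some chromosomes shift in expression together, also carry higher p53 target expression.

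The p53 protein is a transcription factor that is kept scarce by the ubiquitin ligase MDM2 and held inactive by its relative MDM4, and DNA damage frees it from that control. Freed p53 binds paired short DNA sites and raises genes that stop the cell cycle, trigger cell death, repair DNA or dampen growth signaling, and Mdm2 is itself such a target, which closes a negative feedback loop. p53 is controlled mainly at the protein level, so that the joint level of its targets is the usual transcript readout of its activity. Mouse ES cells are known for abundant Trp53 mRNA, for easily triggered cell death after damage, and for gains of chromosomes during culture.

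No p53 gene was called higher in the Sim2 clones, and none was called lower. Of 29 members with a mean of at least 1 RPKM (reads scaled to transcript length and library depth), 0 differed between the 3 clones and the 3 EB3 cultures at an adjusted p under 0.05 (limma on log2(RPKM + 0.5), Benjamini-Hochberg over 11595 genes), where 81 genes, 0.699%, did so over the table. At an unadjusted p under 0.05 the members numbered 2 of 29, Pmaip1 and Ccng1, both lower in the clones, against 17.8% of all genes tested. The direction leaned down: 22 of 29 members (75.9%) had lower means in the clones against 50.9% of all genes, and the median log2 difference was -0.15 against -0.0055. Under other scalings 18 to 23 of the 29 were lower, the fewest with trends in transcript length and GC content removed. Without B8, 19 of 29 were lower and the median was -0.10. Differences ran from -0.85 for Pmaip1 to 0.27 for Sesn1. The 95% interval of the difference ended below a log2 of 1, a 2-fold rise, for each of the 29, the highest upper limit being 0.80 for Mdm4. In the other direction the interval reached under -1 for 1 member, Pmaip1, at -1.57. All of these intervals are per gene, without adjustment over the 29, and take EB3-1 and EB3-2 as separate samples. With EB3-1 and EB3-2 averaged the Mdm4 difference was 0.21, and intervals for that setting are not given here.

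**Figure D1:**
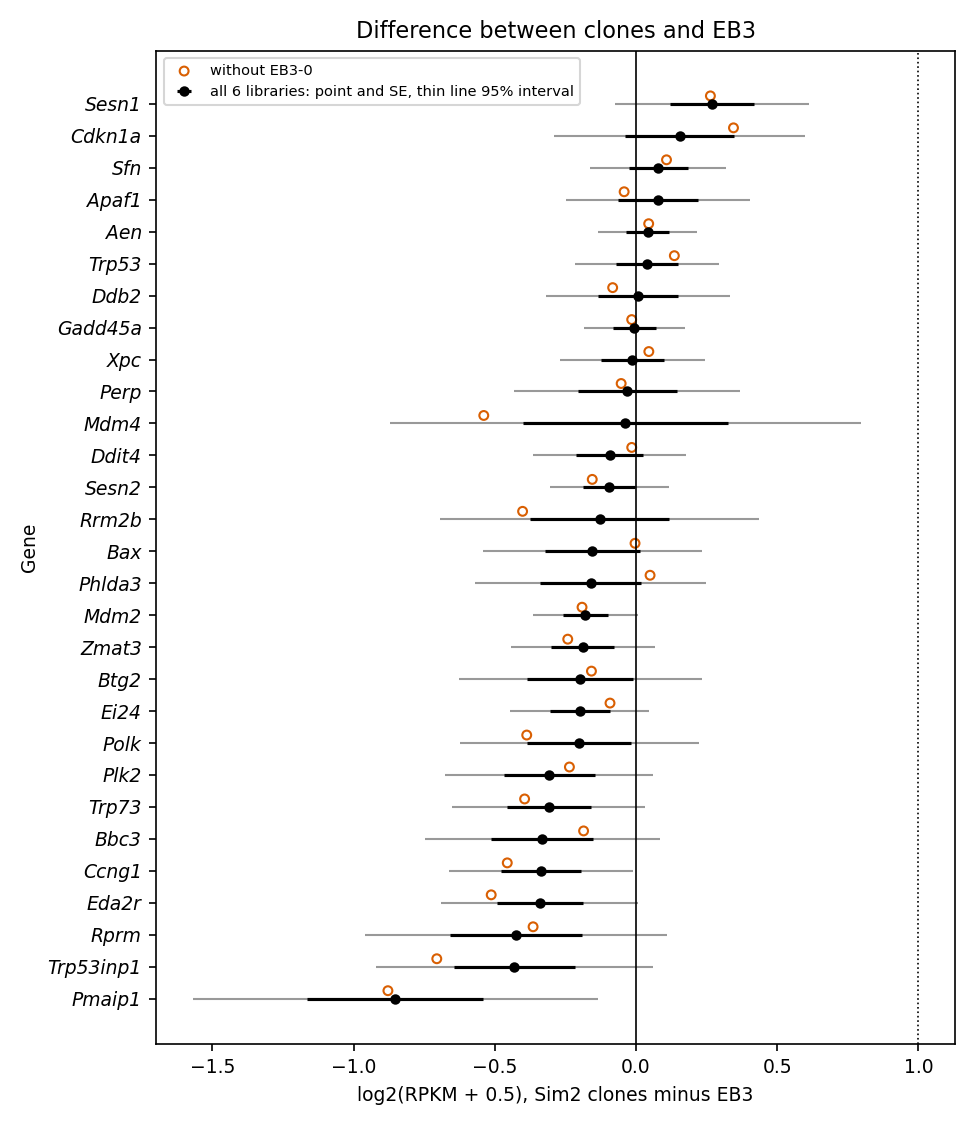
Difference between the 3 Sim2 clones and the 3 EB3 cultures for the 29 tested p53 genes, as log2(RPKM + 0.5), with SE (thick line) and 95% interval (thin line), and the value without EB3-0 as an open circle. The values lie between -0.85 and 0.27, and no interval reaches the dotted line at a log2 difference of 1.

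Depth was 25095861 to 28269340 reads per library in the table. Sim2 stood at 168 to 212 RPKM in the clones and at 0.0917 to 0.130 in EB3, as the labels state. EB3-1 and EB3-2 were close to each other, although they differed by more than sampling noise (chi-square per gene 2.65), and EB3-0 stood apart from both (65.5 and 64.9 per gene). Among the clones B8 stood apart from A6 and C4 (34.7 and 30.6 per gene), which were closer to each other (11.0). Among the p53 genes EB3-0 was 0.2 or more from the mean of the other EB3 cultures, on the log2 scale, for 17 of 29 members, while EB3-1 and EB3-2 never were that far apart (at most 0.13). ES cell markers summed to 2906 to 3124 RPKM in the clones and 3079 to 3412 in EB3. Single markers moved in opposite directions. Zfp42 was at 415 to 439 RPKM in the clones and 511 to 536 in EB3 (limma adjusted p = 0.145, and 0.0350 without EB3-0). Esrrb was at 299, 450 and 308 RPKM in A6, B8 and C4 and 276 to 284 in EB3 (limma adjusted p = 0.346). It lies at chr12:87702067-87862578. Genes at 80 to 90 Mb of chromosome 12 had a median log2 difference from EB3 of 0.37 in B8, 0.01 in A6 and -0.03 in C4. The part of that stretch in the Esrrb value of B8 was not tested. 6 fibroblast markers summed to 10.9 to 14.05 and 10.2 to 13.4 RPKM, nearly all of it Thy1, with Col1a1 at most 0.165 and Col1a2, Col3a1 and Dcn at or near 0, and 7 markers of differentiated cells summed to 5.75 to 9.0 and 6.16 to 7.26. Of the markers of differentiated cells, Gata4 and Sox17 were higher in every clone than in every EB3 culture, at levels too low to test. Gata4 was at 0.846 to 0.980 RPKM against 0.518 to 0.745, and Sox17 at 0.280 to 0.298 against 0.0239 to 0.117. Gata6, Dab2, T, Eomes and Pax6 overlapped between the groups. In bulk libraries fewer cells of a type and less RNA per cell cannot be told apart.

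Most of the pathway was well expressed: 18 of the 31 members had a mean of 20 RPKM or more over the 6 libraries. Bax, the pore-forming executioner of mitochondrial death, was the most abundant, followed by Trp53. Trp63 and Fas were too low to test.

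**Figure D2:**
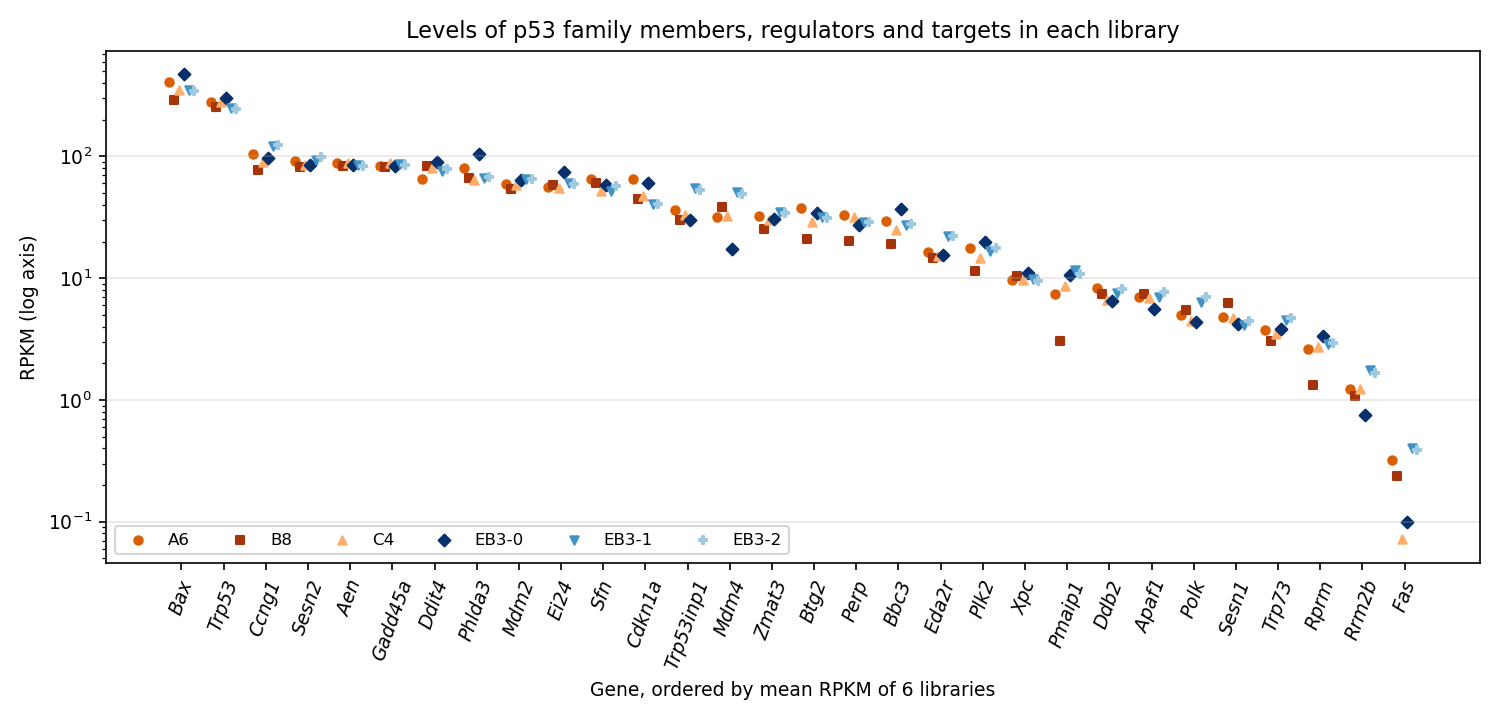
RPKM (log axis) of the p53 genes in each library, ordered by mean level. Trp63, with 2 reads in EB3-0 and 0 in the other libraries, is not drawn. Clones and EB3 cultures overlap for most genes, and B8 lies low for Pmaip1 and Rprm.

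RefSeq promoter sequences (GRCm38.p6, 300 bases each, mostly upstream of the gene start) were matched to 23 of the 31 members. They were searched on both strands for the p53 half-site, the unit of which p53 binds a pair. 4 that hold it are shown, those of Trp53 itself, of its feedback target Mdm2, and of the arrest genes Cdkn1a and Ccng1, whose values follow. Trp53 is chr11:69580109-69580408 (plus strand), Mdm2 chr10:117710709-117711008 (minus strand), Cdkn1a chr17:29090729-29091028 (plus strand, the upstream start of this gene) and Ccng1 chr11:40755237-40755536 (minus strand). Each reads 5′ to 3′ along the gene, with half-sites in capitals.
Trp53: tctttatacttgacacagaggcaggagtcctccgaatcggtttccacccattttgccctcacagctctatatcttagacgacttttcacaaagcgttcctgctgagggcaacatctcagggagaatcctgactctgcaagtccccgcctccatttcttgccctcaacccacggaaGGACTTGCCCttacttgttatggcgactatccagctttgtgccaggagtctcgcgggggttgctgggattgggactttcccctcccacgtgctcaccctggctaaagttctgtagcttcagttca
Mdm2: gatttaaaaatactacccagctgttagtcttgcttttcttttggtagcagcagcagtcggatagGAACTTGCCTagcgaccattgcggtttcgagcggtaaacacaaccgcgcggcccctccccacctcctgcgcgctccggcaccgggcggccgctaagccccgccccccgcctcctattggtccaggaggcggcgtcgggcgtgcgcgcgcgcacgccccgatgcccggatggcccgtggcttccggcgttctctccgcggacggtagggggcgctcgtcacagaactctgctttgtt
Cdkn1a: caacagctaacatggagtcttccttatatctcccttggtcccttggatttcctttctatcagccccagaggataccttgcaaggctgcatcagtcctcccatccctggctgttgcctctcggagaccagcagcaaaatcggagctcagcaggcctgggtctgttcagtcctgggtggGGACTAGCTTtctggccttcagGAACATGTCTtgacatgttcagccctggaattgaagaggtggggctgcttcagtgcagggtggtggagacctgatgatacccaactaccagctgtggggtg
Ccng1: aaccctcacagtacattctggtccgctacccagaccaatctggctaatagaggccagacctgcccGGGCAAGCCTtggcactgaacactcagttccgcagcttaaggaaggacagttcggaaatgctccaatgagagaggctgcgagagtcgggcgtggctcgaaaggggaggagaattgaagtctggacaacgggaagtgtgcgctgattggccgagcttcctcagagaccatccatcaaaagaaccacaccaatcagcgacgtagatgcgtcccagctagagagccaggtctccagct

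The half-site began at -75 from the start in Trp53, -186 in Mdm2, -73 in Cdkn1a, where a second match followed, and -185 in Ccng1. 10 of 23 member genes held a match (Aen, Bax, Ccng1, Cdkn1a, Ei24, Gadd45a, Mdm2, Polk, Sesn1 and Trp53), against 9.55% of 27025 genes and 8.36% of 32851 promoters with this window. Of the 10 members with a match 6 were lower in the clones (median log2 difference -0.08), and of 12 tested members without one 10 were lower, with a median of -0.18. The core ACGTG, the motif bound by dimers of SIM2 or other bHLH-PAS factors with ARNT, searched on both strands, was in 9 of 23 members (Aen, Apaf1, Bax, Bbc3, Ddit4, Eda2r, Fas, Plk2 and Trp53) and in 21.8% of all genes. These matches describe letters in a window and say nothing of binding.

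In the family and its regulators no gene was called, with 3 of 4 tested genes lower in the clones. Trp53 (mm9, chr11:69393861-69405375) was at 282, 253 and 279.9 RPKM in A6, B8 and C4 and at 302, 248 and 245 in EB3-0, EB3-1 and EB3-2. The groups overlapped, and the highest library was EB3-0. The means were 271 ± 16.3 and 265 ± 31.9 (SD, n = 3 each), a log2 difference of 0.04 ± 0.11 (SE, 95% interval -0.22 to 0.29, limma adjusted p = 0.889, two-sided exact permutation p = 0.8). Trp53 shares 1177 aligned bases at 95.1% identity with a second place on chromosome 17, so some reads may have been counted from there.

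Mdm2 (chr10:117125961-117147772), the target that feeds back on p53, was at 59.6, 54.1 and 57.9 RPKM in A6, B8 and C4 against 63.7, 65.4 and 65.2 in EB3-0, EB3-1 and EB3-2. All 3 clones were below all 3 EB3 cultures, by a small margin. The log2 difference was -0.18 ± 0.08 (SE, 95% interval -0.36 to 0.01) with a limma adjusted p of 0.295, and the exact permutation p of 0.1 is the smallest that 3 against 3 allows. Without EB3-0 the log2 difference was -0.19.

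Mdm4, the partner of MDM2 that masks the activation domain of p53, was at 31.7, 38.5 and 32.6 RPKM in A6, B8 and C4 and at 17.2, 50.7 and 48.9 in EB3-0, EB3-1 and EB3-2. The clones lay inside the EB3 range only because EB3-0 was low. The log2 difference was -0.04 ± 0.36 (limma adjusted p = 0.970) with all libraries and -0.54 ± 0.10 without EB3-0 (limma adjusted p = 0.0358). Mdm4 has a near copy on the X chromosome, 3317 aligned bases at 93.3% identity, whose part in these counts was not tested. Trp73, the family member that acts in neural and epithelial cells, was at 3.04 to 3.73 RPKM in the clones and 3.80 to 4.69 in EB3, without overlap (log2 difference -0.31 ± 0.15, limma adjusted p = 0.325). Trp63, the epidermal member, had 2 reads in EB3-0 and 0 in the other 5 libraries, where a count of 0 allows up to 0.0223 RPKM (3 reads in the shallowest library).

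Growth arrest genes gave no call: 5 of 7 were lower in the clones and 2 higher (median log2 difference -0.20). Cdkn1a (chr17:29227931-29237667) encodes p21, the inhibitor of cyclin-dependent kinases through which p53 halts cells in G1, and was at 65.6, 44.7 and 47.6 RPKM in A6, B8 and C4 against 60.8, 40.6 and 40.8 in EB3-0, EB3-1 and EB3-2. The spread within each group was wider than the distance between them, with A6 and EB3-0 both high. The log2 difference was 0.15 ± 0.19 (SE, 95% interval -0.29 to 0.60, limma adjusted p = 0.721, exact permutation p = 0.5). Without EB3-0 it was 0.35, and it still missed the threshold (limma adjusted p = 0.230). It was 0.057 without EB3-1, 0.061 without EB3-2 and -0.013 without A6.

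Ccng1 (chr11:40562054-40568788), cyclin G1, an arrest-associated target that also acts on MDM2, was at 105, 77.2 and 89.6 RPKM in A6, B8 and C4 and at 96.4, 122 and 125 in EB3-0, EB3-1 and EB3-2. A6 lay above EB3-0, and the other clones lay below all EB3 cultures. The log2 difference was -0.34 ± 0.14 (SE, limma adjusted p = 0.267). Rprm (chr2:53936504-53937963), Reprimo, which arrests cells in G2, was at 2.62, 1.33 and 2.74 RPKM in A6, B8 and C4 and at 3.36, 2.89 and 2.91 in EB3-0, EB3-1 and EB3-2. It did not overlap between groups, but B8 carried most of the distance, and the log2 difference of -0.43 ± 0.23 had a limma adjusted p of 0.392 on 50 to 134 reads per library. Without B8 it was -0.16.

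Plk2, a stress-induced kinase, ranged from 11.5 (B8) to 17.8 RPKM in the clones and from 16.7 to 19.9 in EB3. Btg2, an anti-proliferative factor, ranged from 20.9 (B8) to 37.5 (A6) against 31.4 to 34.3, so that the clones spanned the EB3 values on either side. Gadd45a, a damage-inducible gene that blocks the G2 kinase, was the flattest of the group at 82.6 to 88.3 RPKM in the clones and 84.2 to 86.1 in EB3, with 809 bases shared with a gene on the opposite strand. Sfn, the 14-3-3 protein that sequesters mitotic kinases, was at 52.1 to 64.9 and 52.3 to 58.2 RPKM, and it has copies elsewhere in the genome with up to 1285 aligned bases at 92.2% identity.

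Cell death genes had the single largest difference but no call: 9 of 11 tested were lower in the clones (median log2 difference -0.19). Pmaip1 (chr18:66618258-66625212) encodes NOXA, a BH3-only protein that disarms MCL1, and was at 7.36, 3.07 and 8.61 RPKM in A6, B8 and C4 against 10.6, 11.6 and 10.7 in EB3-0, EB3-1 and EB3-2. All clones were below all EB3 cultures, and B8 was the lowest by far. The log2 difference was -0.85 ± 0.31 (SE, 95% interval -1.57 to -0.14), with a limma adjusted p of 0.210 and an exact permutation p of 0.1. Leaving out each library in turn gave -1.11 to -0.44, the smaller size being without B8.

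Trp53inp1 (chr4:11083588-11101524), a stress protein that joins p53 in promoting death and autophagy, was at 36.2, 29.9 and 33.0 RPKM in A6, B8 and C4 and at 30.3, 54.6 and 53.4 in EB3-0, EB3-1 and EB3-2. EB3-0 sat among the clones, far below the other EB3 cultures. The log2 difference was -0.43 ± 0.21 (SE, limma adjusted p = 0.341), and -0.71 ± 0.09 without EB3-0 (limma adjusted p = 0.0197). Eda2r (chrX:94529180-94572548), a death-associated receptor of the TNF receptor superfamily, showed the same arrangement, with 16.5, 14.8 and 15.1 RPKM in A6, B8 and C4 and 15.4, 22.2 and 22.3 in EB3-0, EB3-1 and EB3-2. Its log2 difference was -0.34 ± 0.15 (limma adjusted p = 0.292), and -0.51 ± 0.08 without EB3-0 (limma adjusted p = 0.0300). With Mdm4 these were the 3 of 29 members called without EB3-0, where 5.99% of all genes were called. With EB3-1 and EB3-2 averaged into 1 sample 0 members were called, in a fit that called only 6 of all 11595 genes. That 0 therefore says little of these 3 members.

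The BCL2 family members Bbc3 and Bax gave no call either. Bbc3, which encodes PUMA, a BH3-only protein, was at 29.5, 19.0 and 24.7 RPKM in A6, B8 and C4 and at 37.3, 27.1 and 27.6 in EB3-0, EB3-1 and EB3-2. Bax was at 412, 289 and 348 against 475, 348 and 346 in the same order. For these genes B8 was the lowest library and EB3-0 the highest, and the log2 differences were -0.33 ± 0.18 and -0.15 ± 0.17 (limma adjusted p = 0.387 and 0.684). Without EB3-0 they were -0.19 and -0.0035, and without B8 -0.17 and -0.02.

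Ei24, an endoplasmic reticulum protein, was at 54.7 to 58.3 RPKM in the clones and 59.5 to 74.9 in EB3, without overlap (log2 difference -0.20 ± 0.11, limma adjusted p = 0.384, and -0.09 without EB3-0). Perp, a membrane protein of desmosomes and of apoptosis, was at 33.2 and 31.8 RPKM in A6 and C4, above the EB3 range of 27.6 to 29.1, and at 20.4 in B8, below it. Phlda3, which restrains AKT, was at 63.7 to 80.0 RPKM in the clones and 66.7 to 104 in EB3, and Zmat3, an RNA-binding protein, at 25.5 to 32.3 and 30.9 to 34.6. These clone values overlapped those of EB3.

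Aen, a nuclease of apoptosis, was nearly level at 83.6 to 88.7 RPKM in the clones and 83.5 to 84.7 in EB3, although 902 of its bases recur at 99.6% identity on chromosome 4. Apaf1, the scaffold of the apoptosome, was at 6.87 to 7.43 and 5.60 to 7.66 RPKM. Fas, the death receptor, was nearly silent, with 12, 9 and 3 reads in A6, B8 and C4 and 4, 16 and 15 in EB3-0, EB3-1 and EB3-2, too few to read a difference.

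Repair and metabolic stress genes were the least displaced, with 5 of 7 lower and a median log2 difference of -0.09. Sesn1, a sestrin that restrains mTORC1 and peroxides, was the only member higher in all 3 clones than in all EB3 cultures, at 4.82, 6.27 and 4.67 RPKM in A6, B8 and C4 against 4.19, 4.10 and 4.42 in EB3-0, EB3-1 and EB3-2. Its log2 difference was 0.27 ± 0.15 (limma adjusted p = 0.395), and 0.15 without B8. Its better expressed relative Sesn2, also under ATF4, was at 81.9 to 91.3 RPKM in the clones and 84.4 to 98.1 in EB3.

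Ddb2 and Xpc, which recognize damage for nucleotide excision repair, were at 6.61 to 8.36 against 6.47 to 8.20 RPKM and at 9.68 to 10.5 against 9.49 to 10.9, and Ddb2 overlaps Acp2 on the opposite strand by 2517 bases. Polk, a translesion polymerase, was at 4.47 to 5.46 in the clones and 4.35 to 6.96 in EB3. Rrm2b, the ribonucleotide reductase subunit that p53 induces, was at 1.08 to 1.24 RPKM in the clones and at 0.755, 1.77 and 1.66 in EB3-0, EB3-1 and EB3-2, with 2834 aligned bases at 95.6% identity on chromosome 13. Ddit4, REDD1, an mTORC1 inhibitor shared with the hypoxia response, was at 65.8 to 83.1 and 75.7 to 90.7 RPKM. In each of these genes the clones overlapped EB3.

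Across the members, 5 had all clones below all EB3 cultures (Trp73, Mdm2, Pmaip1, Ei24 and Rprm) where 13.4% of all genes did, and 1 had all above (Sesn1) where 12.7% did. These are the 6 members at the smallest exact permutation p of 0.1.

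The clones were not alike. In A6, 7 of 29 members were below all 3 EB3 cultures and 7 above, against 25.0% and 27.8% of all genes, a share near the background. In B8, 17 were below and 2 above (Sesn1 and Sfn), against 34.4% and 32.5%. In C4, 13 were below and 4 above, against 28.3% and 23.6%. The median difference from the EB3 mean over the members was -0.04 for A6, -0.22 for B8 and -0.14 for C4, where that of all genes was 0.01, -0.0079 and -0.02. With 1 library per clone these are descriptions without a test.

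B8 was the lowest of all 6 libraries in 15 of 29 members (51.7%), against 26.5% of all genes. On the log2 scale its value was below the EB3 mean by most for Pmaip1 (-1.68) and Rprm (-0.96), followed by Bbc3 (-0.66), Btg2 (-0.63), Plk2 (-0.62), Trp53inp1 (-0.57) and Ccng1 (-0.55). By role, its median was -0.55 for growth arrest, -0.41 for cell death and 0.0016 for repair and metabolic stress. In the other lists, read against the same 34.4% of all genes, B8 was below all EB3 cultures for 16 of 28 further p53 targets, 17 of 28 DNA repair factors and 10 of 22 damage signaling genes, and for 9 of 26 genes lowered by p53 and p21, 4 of 16 other apoptosis genes, 4 of 11 stress response genes and 2 of 18 modifiers of p53, of which 8 were above. The largest rise of any member in any clone was 0.52 (Sesn1 in B8), and Cdkn1a in A6 was 0.49 above the EB3 mean, where EB3-0 alone also stood high.

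**Figure D3:**
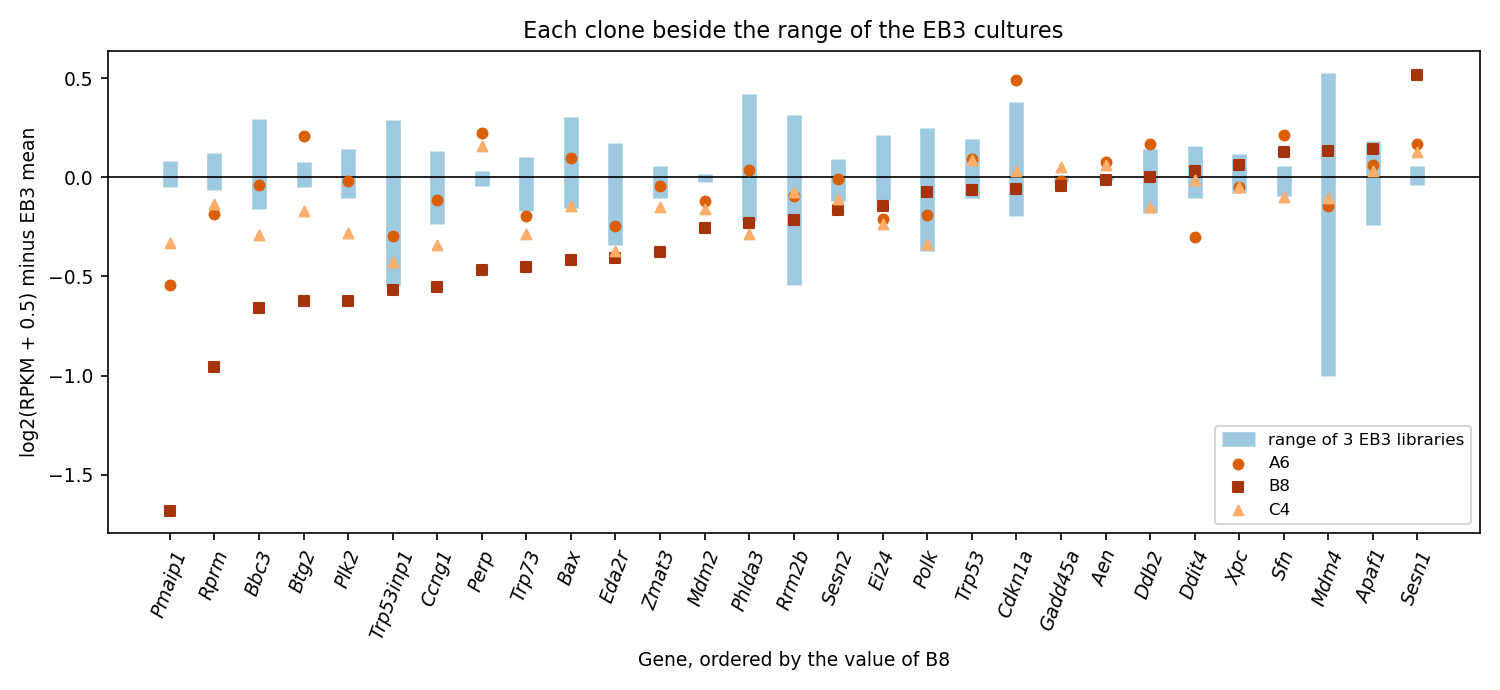
Each clone's log2(RPKM + 0.5) minus the EB3 mean for the 29 tested genes, ordered by B8, with the range of the 3 EB3 cultures as bars. B8 (squares) lies below the bar for 17 genes, A6 (circles) for 7 and C4 (triangles) for 13.

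With length and GC trends removed, the members that could be placed in a window lay outside the stretches of chromosome that shifted. In these values, a version chosen after seeing the data, medians of genes in windows of 10 Mb shifted by 0.2 or more (log2) in 5 of 238 windows in A6 (chromosomes 14 and 15), 9 in B8 (chromosomes 12, 14, 15 and 18) and 6 in C4 (chromosomes 14 and 15), and in 1, 0 and 0 windows in EB3-0, EB3-1 and EB3-2. The clones shared a raised window at 70 to 80 Mb of chromosome 14, with medians of 0.46, 0.40 and 0.49 in A6, B8 and C4, and a lowered one at 120 to 130 Mb, with -0.72, -0.63 and -0.58. On chromosome 12, B8 alone had a raised window at 80 to 90 Mb, at 0.36, and a lowered one at 100 to 110 Mb, at -0.94. 0 tested members lay in a shifted window of any library, and 0 lay anywhere on chromosomes 12 and 14. Windows with fewer than 10 tested genes, among them that of Gadd45a on chromosome 6, were left out, here and in the values as deposited. In the values as deposited the picture differed: of 241 windows 14, 29 and 8 were shifted in A6, B8 and C4 and 37, 3 and 0 in EB3-0, EB3-1 and EB3-2, the most in EB3-0. Trp53inp1 then lay in a shifted window of A6 (chromosome 4, median -0.20), and Rprm, Bbc3 and Bax in shifted windows of EB3-0 (medians -0.20, 0.21 and 0.30). Rrm2b was the single tested member on chromosome 15, in a window that had, with trends removed, medians of -0.0096, -0.09 and -0.09 in A6, B8 and C4.

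Pmaip1 and Rprm were low in B8, and the medians of their windows were near the EB3 mean. The 49 genes of the Pmaip1 window, at 60 to 70 Mb of chromosome 18, had a median of -0.04 in B8 with trends removed. The window of Rprm on chromosome 2 had a B8 median of 3.3e-06. A median over a window does not show the genes next to a member, and whether those were low in B8 was not tested. In the values with trends removed, the members below all EB3 cultures numbered 9 in A6, 16 in B8 and 16 in C4 (31.0%, 55.2% and 55.2%, against 28.3%, 37.8% and 33.6% of all genes with a GC value). The design holds 1 library of each clone, so clone, culture and library cannot be told apart.

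The median departure of EB3-0 went down from the shortest to the longest length class. Among members with a cDNA under 2000 bases, EB3-0 minus the mean of the other EB3 cultures had a median of 0.24 (11 genes), from 2000 to 4000 bases -0.02 (11 genes), and from 4000 bases -0.51 (7 genes), with 0 of 7 higher in EB3-0. Over all tested genes the medians were 0.24, -0.0051 and -0.31. The member lowest in EB3-0, Mdm4 (-1.50, with a cDNA of 3490 bases, in the middle class), departed from this order. Trp53inp1 (-0.82) and Rrm2b (-0.82), the next lowest, were in the longest class. Those highest, Phlda3 (0.63) and Cdkn1a (0.57), were in the shortest class. The calls for Mdm4, Trp53inp1 and Eda2r without EB3-0 concern members that were low in this library.

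**Figure D4:**
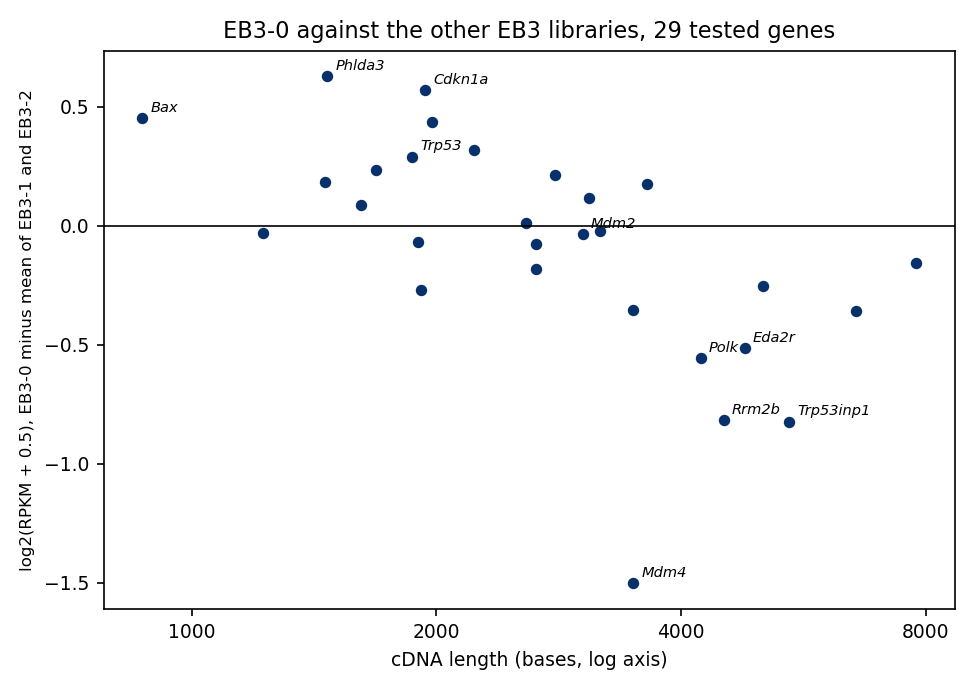
EB3-0 minus the mean of EB3-1 and EB3-2, as log2(RPKM + 0.5), against cDNA length (log axis) for the 29 tested genes. Each point is a gene, and all 7 genes of 4000 bases or more lie below 0.

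Around the members, 7 other lists gave 0 calls each, where only 0.699% of all genes tested were called. Of 28 further p53 targets tested 20 were lower in the clones (median log2 difference -0.11), and 16 of 28 were lower without EB3-0 (median -0.09). They were led by Slc19a2, a thiamine transporter (-0.49 ± 0.11, limma adjusted p = 0.0847, and called without EB3-0 at 0.0334), while Trp53i11 was higher (0.43 ± 0.11, limma adjusted p = 0.116). Damage signaling genes (12 of 22 lower, median -0.04, and 16 of 22 lower, median -0.15, without EB3-0) were led by Rad50, a subunit of the complex that senses broken ends (-0.48 ± 0.16, limma adjusted p = 0.176), and Rad1, of the checkpoint clamp (-0.41 ± 0.14, 0.189). DNA repair factors (17 of 28 lower, median -0.03, and 20 of 28, median -0.07, without EB3-0) were led by Rad51c (-0.65 ± 0.26, limma adjusted p = 0.240), low in B8 at 2.44 RPKM against 6.58 to 7.12 in EB3, and Fanca (0.26 ± 0.13, 0.331).

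Genes that are lowered when p53 and p21 act were split evenly with all libraries, 13 of 26 lower with a median of -0.00012, but not without EB3-0, where 8 of 26 were lower and the median was 0.06. Ccnb1, cyclin B1, was at 68.2, 55.8 and 59.4 RPKM in A6, B8 and C4 and at 82.6, 85.7 and 79.4 in EB3-0, EB3-1 and EB3-2 (log2 difference -0.44 ± 0.10, limma adjusted p = 0.0852), and Birc5, survivin, followed (-0.23 ± 0.10, 0.310). Modifiers of the p53 protein (8 of 18 lower, median 0.05) were led by Ppp1r13b, ASPP1 (0.54 ± 0.18, limma adjusted p = 0.171), and Ep300, an acetyltransferase of p53 (0.67 ± 0.26, 0.229). Ep300 lies at chr15:81416644-81482507. In the values as deposited its window had medians of 0.33, 0.28 and 0.27 in A6, B8 and C4, and with trends removed 0.25, 0.16 and 0.22. Other apoptosis genes, among them BCL2 family members, caspases and cytochrome c (6 of 16 lower, median 0.06, and 8 of 16, median -0.00064, without EB3-0), were led by Cycs, cytochrome c (-0.59 ± 0.17, limma adjusted p = 0.136), and Mcl1, the survival protein that NOXA binds (-0.29 ± 0.08, 0.142). Cycs was low, at 0.951 to 1.39 RPKM in the clones and 1.89 to 2.00 in EB3, near the 1 RPKM needed for the test. Copies of Cycs were not sought. Targets of the ATF4 and CHOP stress response (7 of 11 lower, median -0.13, and 6 of 11, median -0.02, without EB3-0) were led by Chac1 (-0.45 ± 0.16, limma adjusted p = 0.197) and Psat1 (-0.35 ± 0.12, 0.20). At an unadjusted p under 0.05 these lists had 5, 4, 1, 1, 3, 2 and 3 genes in this order, against 17.8% of all genes tested. Without EB3-0, named here after their values were seen, the calls in these lists besides Slc19a2 included Chek1 (-0.48 ± 0.10, limma adjusted p = 0.0493) and H2afx (0.29 ± 0.06, 0.0413) in damage signaling. The others were Sirt1 (-0.38 ± 0.06, 0.0313) among the modifiers and Cenpf (-0.42 ± 0.07, 0.0315) among the cell cycle genes. The calls without EB3-0 were thus 1 of 28 further targets, 2 of 22 damage signaling genes, 1 of 18 modifiers and 1 of 26 cell cycle genes. The DNA repair, other apoptosis and stress response lists had 0. Over all genes tested 5.99% were called in that fit.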

How the data were processed

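mRNA was sequenced from 6 ES cell libraries (TruSeq, paired-end HiSeq 2000). Per the labels and the study's methods, the authors aligned reads to mm9 with BWA (version not given in the sources used here), computed exon coverage with their own pipeline and deposited RPKM values per gene beside cDNA length. How reads on gene copies or on opposite strands were counted is not given there. RPKM times length gave whole reads in each library (100% of values within 0.1), which set the depth. Genes with a mean of at least 1 RPKM were tested (11595 of 22602) on log2(RPKM + 0.5), a scale that understates changes of low genes, with limma 3.58.1 (lmFit and eBayes with trend, R 4.3.3) and Benjamini-Hochberg adjustment over all tested genes. The 95% intervals come from that fit. Clones and EB3 share no replicate numbers. The EB3 samples are described as independent cultures of 1 line and the clones as 1 culture each, so the p-values measure spread between these libraries. Groups came from the sample titles. Genes given in full were Trp53, Mdm2, Cdkn1a and the 5 members with the largest absolute difference. For the other lists, cell type markers aside, they were called genes or, with no call, the 2 smallest p-values. The members and lists were chosen with earlier results of these data known. Alternatives were 2 other pseudocounts, 2 other filters, quantile and median scaling, removal of length and GC trends, limma's voom on the recovered reads, averaging EB3-1 with EB3-2 and leaving out each library. The limma fit was tested on simulated reads with the same spread in every library. That simulation held no library that stands apart, as EB3-0 and B8 do, so it does not bear on their effect. Copies were sought by BLAST+ 2.17.0 against mm9 (at least 200 bases at 90% identity).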

Additional observations from a re-analysis of the deposited data

How the results depend on the processing

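No paired analysis was possible because the labels give the clones (A6, B8, C4) and the EB3 cultures (0, 1, 2) no shared replicate numbers. 0 members were called under any change of pseudocount, filter, scaling, trend removal or voom, or with EB3-1 and EB3-2 averaged, and leaving out each library gave 0 to 3 members (3 without EB3-0). The median member difference was -0.17 to -0.11 under those changes and -0.19 to -0.10 with 1 library left out, each within the SD over clones of 0.089. Over all genes the number of calls, 81 in the reported fit, was 289 with the length trend removed, 205 with length and GC trends removed, 28 without a filter, 6 with EB3-1 and EB3-2 averaged, 694 without EB3-0, 6 without EB3-1, 6 without EB3-2, 20 without A6, 17 without B8 and 7 without C4. Of single member differences 273 kept their direction and side of the threshold and 13 changed sign. The cause was not tested. They were Ddb2 (-0.016) and Gadd45a (0.045) with quantile scaling, Ddb2 (-0.0090) with median scaling, Apaf1 (-0.027), Gadd45a (0.059) and Perp (0.0012) without the length trend, Gadd45a (0.092), Mdm4 (0.067), Perp (0.069) and Rrm2b (0.037) without length and GC trends, and Mdm4 (0.21), Rrm2b (0.0077) and Trp53 (-0.0098) with EB3-1 and EB3-2 averaged. With 1 library left out, sign changes lay within -0.042 to 0.17 for Apaf1, -0.40 to 0.017 for Btg2, -0.013 to 0.35 for Cdkn1a, -0.083 to 0.085 for Ddb2, -0.16 to 0.010 for Ddit4, -0.033 to 0.015 for Gadd45a, -0.54 to 0.23 for Mdm4, -0.16 to 0.19 for Perp, -0.27 to 0.050 for Phlda3, -0.40 to 0.027 for Rrm2b, -0.014 to 0.14 for Trp53 and -0.053 to 0.045 for Xpc. Counts per clone and windows with trends removed were chosen after seeing the data. Depth limits Fas, Trp63, Rprm and Rrm2b, and 3 libraries against 3 allow no exact permutation p below 0.1.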
